A study of Mus musculus with 20 samples.

Results

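The response of mouse CD8+ T cells to 10 nM of 21h10, a computationally designed protein that mimics interleukin-21 (IL-21), was examined by RNA-sequencing. It was taken from experiment 2 of the study, as the 2 libraries labelled with 21h10 at 10 nM for 24 h against the 2 libraries labelled unstimulated, which are 4 of the 20 libraries in the series. The cells were wild-type C57BL/6 CD8+ T cells, obtained by negative selection from spleens of mice aged 6 to 8 weeks. All groups were activated for 48 h with antibodies to CD3 and CD28 and rested overnight. They were then cultured for 24 h without cytokine (unstimulated), with native mouse IL-21 (mIL-21) or with 21h10. Experiment 2 holds 5 groups with duplicate libraries: unstimulated cells and both cytokines at 10 nM and 100 nM. Experiment 1 covered 100 pM and 1 nM with unstimulated cells of its own. The study's methods describe its RNA-seq replicates as independent, taken from different preparations of tissue or different donors, without detail for these libraries. The labels do not say whether duplicates came from separate mice or cultures. P-values thus measure the spread between duplicates, pooled over the groups of each fit, which may be technical. Against counting error, chi-square per degree of freedom between duplicates was 35.51 in the unstimulated cells of experiment 2 and 8.57 with 21h10 at 10 nM. It was 6.34 to 18.1 in the other groups of that experiment. The pooled spread may be too small for the unstimulated cells.

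IL-21 is made mainly by CD4+ T cells and binds a receptor built of IL-21R and the common gamma chain, IL-2RG. The receptor activates the kinases JAK1 and JAK3, which phosphorylate mainly STAT3 and also other STAT factors such as STAT5. In CD8+ T cells, IL-21 is known to support cytotoxic function together with features of long-lived cells, and SOCS proteins made in response limit the signal.

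Between 27072917 and 43300094 reads lay on genes in the libraries of experiment 2. Levels are given as CPM, the reads of a gene scaled to a fixed total of reads on genes, after adjustment by TMM, which evens out differences in RNA composition between libraries. The share of mapped reads that lay on genes was 80.9% and 76.6% in the unstimulated libraries and 71.0% and 68.5% in those with 21h10 at 10 nM. T cell markers made up 3284 and 3131 CPM without cytokine and 4216 and 4152 CPM with 21h10, and 4 of the 7 measured markers were called as higher and none as lower. Markers of neutrophils, erythroid cells and NK cells summed to less than 4 CPM in each of the 4 libraries, and 4 of the 5 neutrophil markers had 3 reads or fewer in each of them. In bulk RNA, a difference in the share of a cell type and a difference in RNA per cell cannot be told apart.

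With 21h10 at 10 nM, 3469 genes (25.2% of the 13772 tested) were higher than in unstimulated cells and 3434 (24.9%) were lower, at a Benjamini-Hochberg adjusted p under 0.05 in edgeR's quasi-likelihood test. The libraries of both groups did not overlap for 6896 of these 6903 genes, against 73.8% of all genes tested. Most differences were modest. The median size over the called genes was 0.67 on the log2 scale (quartiles 0.43 and 1.23), while 542 genes rose and 298 fell by at least 4-fold. The balance between both directions depended on the scaling. Scaled to mapped reads instead of TMM, the median of all genes moved to -0.27 and the calls to 1969 higher and 5785 lower. With limma on log2(RPKM + 1) the median was -0.25 and the calls were 1509 and 5074. All log2 fold changes below are on the TMM scale, where the median gene lies at 0. Counts in the gene lists below are to be read beside the 25.2% higher and 24.9% lower of all genes. For counts scaled to mapped reads, the values of all genes are 1969 and 5785 of 13772.

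**Figure D1:**
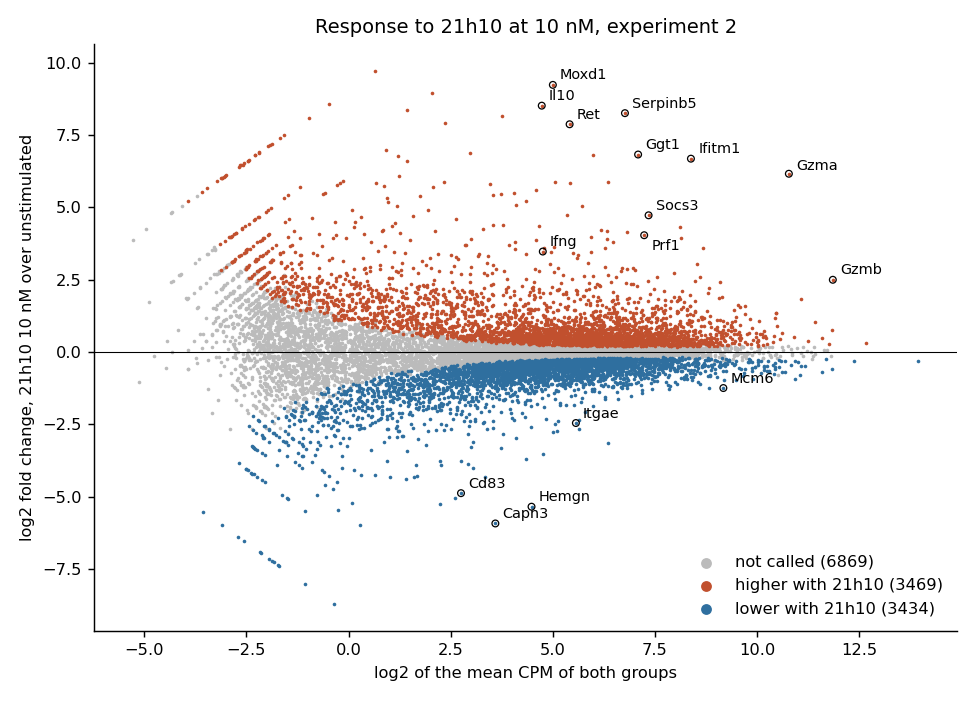
Each point is 1 of the 13772 genes tested. The horizontal axis is the log2 of the mean CPM of both groups and the vertical axis the log2 fold change of 21h10 10 nM over unstimulated cells, with the 3469 higher genes in red, the 3434 lower genes in blue and the others in grey. Moxd1, Il10, Serpinb5 and Ret lie above 7.8, while Gzma and Gzmb rose among the most abundant transcripts.

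The largest rises were in genes that were close to silent in unstimulated cells. Among genes reaching a mean of 1 RPKM (reads scaled to transcript length and to mapped reads), Moxd1, which encodes a relative of the enzyme dopamine beta-hydroxylase (chr10:24223517-24302783 in GRCm38), went from 0.144 and 0.0546 CPM in the unstimulated libraries to 66.3 and 61.8 CPM with 21h10. Its log2 fold change was 9.24 ± 0.19 (SE), with an adjusted p of 3.80e-15. Il10, the anti-inflammatory cytokine interleukin-10 (chr1:131019845-131024970), rose from 0.192 and 0.0818 to 55.5 and 50.5 CPM, with a log2 fold change of 8.52 ± 0.20 (adjusted p = 1.35e-14). Serpinb5, a serpin known as maspin, rose from 0.553 and 0.873 to 224 and 211 CPM. Ret, a receptor tyrosine kinase for ligands of the GDNF family (chr6:118151748-118197744), stood at 0.505 and 0.191 CPM without cytokine and at 86.4 and 83.4 CPM with 21h10, for a log2 fold change of 7.88 ± 0.19. In each of these 4 genes both 21h10 libraries lay over 100-fold above both unstimulated ones.

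Ggt1, a gamma-glutamyltransferase of glutathione metabolism, rose from 2.14 and 2.62 to 282 and 258 CPM. Serpinb1a, an inhibitor of neutrophil-type serine proteases, rose from 1.13 and 1.06 to 131 and 120.2 CPM. Ifitm1, an interferon-induced membrane protein, rose from 7.48 and 5.29 to 699.7 and 625 CPM, though 36.2% of its transcript is near-identical to Gm7676. The homeobox factor Hlx went from 0.0962 and 0.164 to 15.5 and 15.6 CPM, a log2 fold change of 6.88 ± 0.26. For 3 of the 12 largest rises the unstimulated libraries held 7 reads or fewer in sum. Afap1l1, an actin filament-associated protein, had 1 and 0 reads there and 266 and 220 with 21h10, a ratio of 643-fold (95% interval 115 to 25460). The sodium-proton exchanger gene Slc9a2 had 1 and 2 against 278 and 324 reads, a ratio of 266-fold (95% interval 90.5 to 1292). The long non-coding RNA Miat had 3 and 4 against 679 and 919 reads, a ratio of 302-fold (95% interval 146 to 753). These exact intervals cover counting error only.

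The largest falls emptied a smaller set of transcripts. Capn3, a calpain protease, fell from 25 and 22.6 to 0.0713 and 0.677 CPM, a log2 fold change of -5.93 ± 0.39 (adjusted p = 4.15e-09). Hemgn, a nuclear protein known from blood progenitors, went from 40.8 and 46.4 to 0.962 and 1.16 CPM. Xcl1, the chemokine that attracts cross-presenting dendritic cells, went from 11.6 and 11.9 to 0.178 and 0.516 CPM, and Cd83, a surface protein of activated lymphocytes and mature dendritic cells, from 12.3 and 13.8 to 0.356 and 0.516 CPM. In these 4 genes every library with 21h10 was more than 20-fold below the unstimulated ones. Gucy1a3, a subunit of soluble guanylate cyclase, fell from 17.5 and 21.2 to 1.14 and 0.806 CPM. Armcx1, Serpinc1 (antithrombin), Ifi44 and Ica1l fell to below 0.5 CPM in both 21h10 libraries, with log2 fold changes of -4.39, -4.34, -4.31 and -4.29. The other 3 of the 12 rest on 4 reads or fewer with 21h10: H2-Eb1, at 127 and 63 against 2 and 0 reads, 1700101E01Rik, at 63 and 36 against 1 and 3, and the short Mir6973a entry, at 22 and 8 against 1 and 0. Mir6973a lost its call without any of 3 of these 4 libraries, with log2 fold changes from -6.72 to -3.28. Serpinc1 shares 34.4% of its exon bases with Zbtb37 on the opposite strand, Miat 24.3% with Gm26953 and Xcl1 18.7% with Gm20743, and the use of strand in counting is not given in the sources used here.

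By the change in CPM itself, the largest gains were in effector and structural genes. Gzmb (granzyme B, chr14:56258836-56262334) gained most, going from 1082 and 1152 to 6501 and 6128 CPM. Gzma, granzyme A, came second with 46.6 and 50.2 against 3592 and 3359.6 CPM. Vim (the intermediate filament vimentin) rose from 973 and 935 to 3638 and 3184 CPM and Ptprc, the phosphatase CD45, from 1616 and 2007 to 3686 and 3675 CPM. The translationally controlled Tpt1 and the actin gene Actb followed with log2 fold changes of 0.74 ± 0.10 and 0.31 ± 0.08. Scaled to mapped reads, Actb was at 0.04 and not called. The largest losses were in genes of translation and protein folding. Eef1a1, elongation factor 1 alpha, fell from 17805 and 17352 to 14406 and 13754 CPM, followed by the chaperones Hspa8 (log2 fold change -0.57 ± 0.07) and Hsp90ab1 (-0.68 ± 0.07), the ribosomal protein gene Rps2 (-0.92 ± 0.11), elongation factor 2 Eef2 (-0.31 ± 0.08) and nucleophosmin Npm1 (-0.79 ± 0.11). Eef1a1, Hspa8, Rps2, Npm1, Eef2 and Tpt1 have near-identical copies of all or part of their transcripts in the genome, so their counts are uncertain. Without replicate 2 of 21h10, Eef2 was at -0.27 and not called.

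The receptor and signalling genes of the IL-21 pathway were among those that rose. Il21r, the specific receptor chain, went from 126 and 118 CPM to 439 and 426 CPM, a log2 fold change of 1.83 ± 0.08 (adjusted p = 4.52e-11). Il2rg, the common gamma chain, rose from 486 and 461 to 874 and 836 CPM, though 30.5% of its exon bases are shared with the same-strand gene Gm20489. Of the 8 common gamma chain family receptors, 6 rose, 1 fell (2 without replicate 2 of the unstimulated cells or when scaled to mapped reads) and the median log2 fold change was 0.79. Il2ra, the high-affinity IL-2 receptor chain, rose from 466 and 489 to 1180.2 and 1194 CPM and Il7r, the IL-7 receptor of resting and memory cells, from 264 and 314 to 540.5 and 542 CPM. Il2rb, the chain shared by the IL-2 and IL-15 receptors, did not pass the test at -0.24 ± 0.11. It was called as lower when scaled to mapped reads, at -0.51, with limma, at -0.50, without the filter on low counts, at -0.24, and without replicate 2 of the unstimulated cells, at -0.41. Il9r fell to 0 and 4 reads from 59 and 49.

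Of the 11 JAK and STAT genes, 5 rose and 2 fell on the TMM scale (25.2% and 24.9% of all genes). These counts were 2 and 5 when scaled to mapped reads. Without replicate 1 of the unstimulated cells 4 fell. Stat5a went from 91.9 and 78.9 to 205.7 and 213 CPM (log2 fold change 1.29 ± 0.09) and Stat3 from 276 and 248 to 376 and 355 CPM (0.48 ± 0.08). Jak3 rose by 0.66 ± 0.13 and Jak1 by 0.40 ± 0.07 on the log2 scale. Stat3 and Jak1 were at 0.21 and 0.14 when scaled to mapped reads, where neither was called. The kinase gene Tyk2 was at -0.48 ± 0.11.

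Among the SOCS family, which binds JAKs and receptors and dampens cytokine signals, 3 of 8 members rose and none fell (25.2% and 24.9% of all genes). These counts were 3 and 2 when scaled to mapped reads. Socs3 (chr11:117966079-117970336), a STAT3 target, had the largest rise, from 11.9 and 11.8 CPM to 315 and 313 CPM, with a log2 fold change of 4.73 ± 0.09 (adjusted p = 1.18e-15). Cish and Socs2, both known STAT5 targets, rose from 20.7 and 16.2 to 41.8 and 40.4 CPM and from 11.5 and 12.9 to 33.8 and 32.5 CPM. Each of the 3 genes was higher in both 21h10 libraries than in either unstimulated one. Socs1 did not pass the test: the unstimulated libraries, at 19.1 and 11.6 CPM, enclosed those with 21h10, at 18.1 and 16.3 CPM. Without replicate 1 of the unstimulated cells Socs1 was called as higher, at 0.57. Socs5 was not called at -0.15 ± 0.16, but was called as lower when scaled to mapped reads, at -0.42.

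A list of genes linked to STAT3 and the type 17 program contained 22 members, of which 18 were tested, 14 rose and none fell, with a median log2 fold change of 1.48. Beside Il10, Socs3 and Il21r, its risers included Il1r1, the IL-1 receptor (0.313 and 0.464 against 21.5 and 21.9 CPM), the NF-kB cofactor Bcl3 (2.90 ± 0.11), the aryl hydrocarbon receptor Ahr (2.19 ± 0.20), Maf (1.99 ± 0.27) and the STAT3 target kinase Pim1, at 69.5 and 62.2 CPM without and 424 and 446 CPM with 21h10. Il17a, Il17f, Il22 and Ccl20 had too few reads to be tested.

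STAT dimers bind a palindromic core, TTCNNNGAA, which reads the same on both strands. RefSeq promoter windows (250 bases before to 50 after a transcript start, GRCm38.p6) hold at least 1 such core in 8.3% of 32851 cases. Only named risers with a core before the start, in a stretch outside annotated exons, were ranked. Among these, Moxd1, Socs3 and Ifng had the largest fold changes. The matching window of Socs3 lies inside the span of the gene and is not shown. For Moxd1 and Ifng the stretch before the start is shown 5′ to 3′ on the strand of the gene, with the core in capitals.
Moxd1, chr10:24223267-24223516, plus strand: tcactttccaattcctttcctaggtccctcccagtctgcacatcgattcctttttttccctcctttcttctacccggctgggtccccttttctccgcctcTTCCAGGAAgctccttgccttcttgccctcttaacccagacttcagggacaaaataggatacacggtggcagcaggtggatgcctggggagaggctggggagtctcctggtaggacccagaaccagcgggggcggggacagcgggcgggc
Ifng, chr10:118440796-118441045, plus strand: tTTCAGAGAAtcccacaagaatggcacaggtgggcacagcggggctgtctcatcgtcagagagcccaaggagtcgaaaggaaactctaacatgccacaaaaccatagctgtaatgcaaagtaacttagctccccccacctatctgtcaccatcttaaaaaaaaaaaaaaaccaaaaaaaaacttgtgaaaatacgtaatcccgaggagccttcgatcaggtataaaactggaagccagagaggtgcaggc
The core began 150 bases before the start of the transcript in Moxd1 and 249 in Ifng. Windows were found for 10839 of the 13772 genes tested, under 80%, so shares among the higher and lower genes are void as a check and are not given. A match of letters does not show that a factor was bound.

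Of 24 cytotoxic granule and death ligand genes, 14 were higher and 4 lower (25.2% and 24.9% of all genes), with a median log2 fold change of 0.32. Scaled to mapped reads, 11 were higher and 5 lower, with a median of 0.05. Prf1, the pore-forming perforin (chr10:61297751-61304684), was at 18.1 and 16.6 CPM in unstimulated cells and at 293 and 278 CPM with 21h10, for a log2 fold change of 4.04 ± 0.11 (adjusted p = 7.05e-14). Gzmb had a log2 fold change of 2.50 ± 0.08 and Gzma of 6.17 ± 0.12. Gzmk rose from 3.01 and 2.95 to 22.2 and 17.9 CPM. Granule genes that rose less were Nkg7 (1.19 ± 0.13), Ctsw (1.79 ± 0.09), Srgn (1.11 ± 0.10) and Rab27a (1.18 ± 0.07), the last a GTPase of granule docking. Tnfsf10, the death ligand TRAIL, rose by 1.23 ± 0.11 on the log2 scale. The granzymes did not move together. Gzmc fell from 14.7 and 15.7 to 11.1 and 8.86 CPM and Gzmf from 1.28 and 1.2 to 0.321 and 0.193 CPM, calls that were lost without replicate 2 of 21h10, at -0.45 and -1.94 on the log2 scale. Without that library 1 gene of the list was lower in place of 4. Serpinb9, which protects the killer cell from granzyme B, rose by 0.99 ± 0.08.

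**Figure D2:**
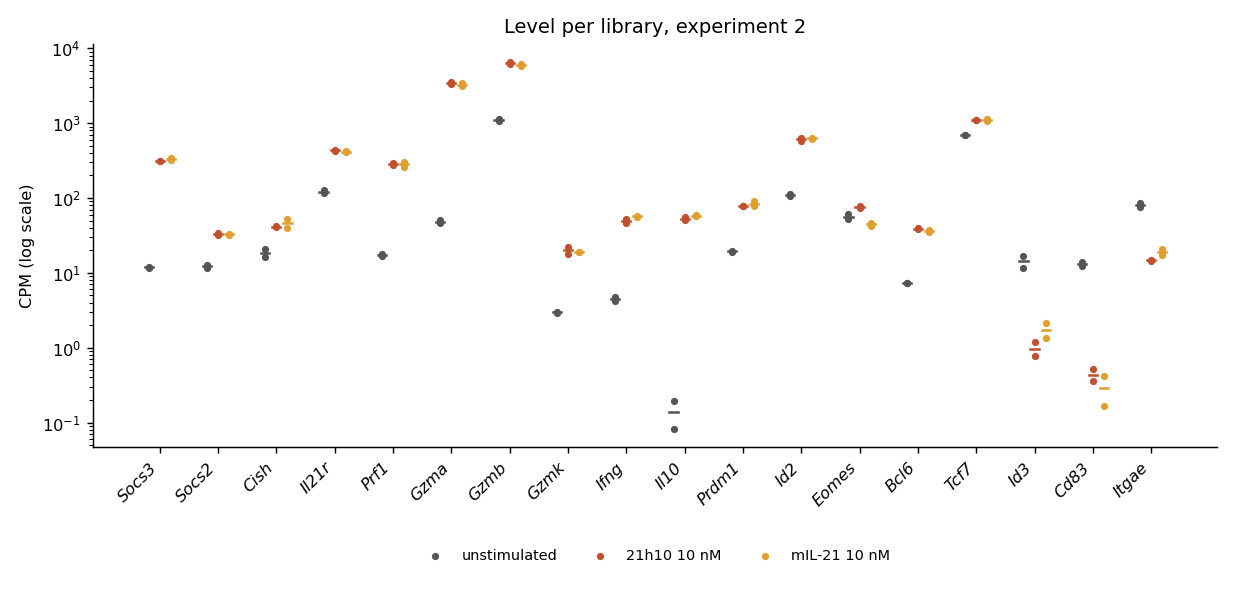
CPM on a log axis for 18 genes in experiment 2, with 1 point per library and a bar at the mean of the 2 libraries of unstimulated cells (grey), 21h10 10 nM (red) and mIL-21 10 nM (yellow). Eomes is the only gene of the 18 called between both cytokines, at 73.2 and 78.2 CPM with 21h10 against 46.2 and 42.6 CPM with mIL-21.

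Of the 25 cytokine genes listed, 16 were tested, 5 rose and 5 fell, shares near the 25.2% and 24.9% of all genes. Ifng, the effector cytokine interferon gamma (chr10:118441046-118445894), rose from 4.19 and 4.75 to 52.3 and 47 CPM, a log2 fold change of 3.48 ± 0.12 (adjusted p = 1.13e-12). Its exons share 25.9% of their bases with the same-strand gene Gm49751. Osm, oncostatin M of the IL-6 family, rose from 8.76 and 7.8 to 60.6 and 53.7 CPM, and Il24 reached 1.57 and 1.71 CPM from 0.0722 and 0.30 CPM. Among those that fell, Lta (lymphotoxin alpha) went from 16.8 and 16.9 to 2.53 and 3.71 CPM, Tnfsf11 (RANKL) from 9.05 and 10.5 to 2.0 and 1.97 CPM, and Tnfsf14 (LIGHT) and Ltb were at -1.42 ± 0.22 and -0.66 ± 0.12.

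Transcription factors of effector fate rose in 12 of 16 cases and fell in 2, with a median log2 fold change of 0.51. The 12 became 7 when scaled to mapped reads and with limma. Prdm1, which encodes BLIMP-1, went from 19.5 and 19.2 to 78.3 and 77.9 CPM (2.01 ± 0.10, adjusted p = 9.22e-11). Id2, which sustains effector cells, rose from 107 and 115 to 641 and 578 CPM, and the small homeodomain protein gene Hopx from 49.7 and 50.7 to 296 and 252 CPM. The T-box factors moved less: Tbx21 (T-bet) rose from 61.1 and 52.6 to 79.2 and 82 CPM and Eomes (chr9:118478186-118486132) from 52.7 and 60.4 to 73.2 and 78.2 CPM. Scaled to mapped reads, neither was called, at 0.23 and 0.15 on the log2 scale. Irf4 and Ikzf2 (Helios) fell, with log2 fold changes of -0.79 ± 0.09 and -1.29 ± 0.12.

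Genes of quiescence and memory were also mostly higher, with 11 of 18 up, 5 down and a median of 0.55. Tcf7, which encodes TCF-1 and marks stem-like T cells, rose from 693 and 685 to 1089 and 1094 CPM (0.66 ± 0.08, adjusted p = 2.76e-06). Bcl6, the repressor that opposes BLIMP-1, went from 7.29 and 7.31 to 38 and 39.9 CPM, so both factors were higher in the same libraries. Satb1, a chromatin organiser, rose from 401 and 428 to 1216 and 1282 CPM and S1pr1, the receptor for exit from lymphoid tissue, from 136.2 and 143.1 to 327 and 329.7 CPM. Klf2 and Foxo1, which maintain S1pr1 expression in resting cells, were at 0.92 ± 0.10 and 0.75 ± 0.08. The 5 that fell were Id3 (16.9 and 11.8 against 1.18 and 0.774 CPM), Cxcr5 (22.9 and 19.9 against 5.42 and 4.8 CPM), Myb (-1.22 ± 0.10), Slamf6 (-0.78 ± 0.09) and Ccr7, the lymph node homing receptor, at 321 and 246 CPM without and 194.1 and 176 CPM with 21h10. Id2 and Id3 thus moved in opposite directions.

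Inhibitory receptors and exhaustion genes showed 10 higher and 5 lower of 19, with a median of 0.46. Havcr2 (TIM-3) rose from 15.8 and 20.2 to 138.2 and 137.2 CPM, Btla by 2.43 ± 0.11 on the log2 scale and Nt5e, the ectoenzyme CD73, from 23.5 and 25.1 to 121 and 116 CPM. Lag3 and Entpd1 (CD39) were at 1.86 ± 0.13 and 1.89 ± 0.12. Tox, the factor that drives the exhausted state, fell from 12.2 and 12.4 to 4.38 and 3.87 CPM, and Ctla4 from 273 and 306 to 167 and 153 CPM. Tigit was at 26.8 and 24.7 CPM without and 30.8 and 31 CPM with 21h10, which did not pass the test (adjusted p = 0.0803).

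Costimulatory receptors and ligands numbered 7 higher and 3 lower of 16 (25.2% and 24.9% of all genes). These counts were 6 and 7 when scaled to mapped reads. Icos rose from 123 and 119 to 348 and 347 CPM and Fas from 33.5 and 38.7 to 117 and 106 CPM. Cd27, Cd28 and Tnfrsf4 (OX40) fell, with log2 fold changes of -0.44 ± 0.08, -0.46 ± 0.08 and -0.91 ± 0.17. In the T cell receptor complex and its proximal signalling, 18 of 28 genes rose and 4 fell, with a median of 0.32, or 9 and 8 with a median of 0.05 when scaled to mapped reads. Most steps were small, led by Ptprc (1.02 ± 0.09), the kinase Fyn (0.77 ± 0.08) and Cd3e (0.74 ± 0.11). The 4 that fell were Themis (-0.47 ± 0.11) and Cd5 (-0.51 ± 0.09), the ubiquitin ligase Cblb (-0.98 ± 0.08), a brake on T cell receptor signals, and Cd4 (2.94 and 2.86 against 1.39 and 1.42 CPM). Themis and Cd5 take part in signalling from the receptor, and the call for Cd4 was lost without either 21h10 library, at -1.04 and -1.06. Cd8a was not called, at 514 and 493 CPM against 574 and 563 CPM.

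Of 12 chemokines listed, 8 were tested, 4 rose and 3 fell. Ccl4 went from 1.13 and 0.764 to 51.3 and 43.1 CPM, Ccl3 from 1.54 and 1.66 to 16.5 and 16.8 CPM and Ccl5 from 77.2 and 62 to 185 and 173 CPM, all attractants of T cells and monocytes, and Ccl9 rose by 3.57 ± 0.20. Cxcl10, an interferon-induced ligand of CXCR3, fell from 4.35 and 4.34 to 0.677 and 0.483 CPM. Of 15 chemokine receptors, 8 rose and 6 fell. The 8 became 5 when scaled to mapped reads, or without replicate 1 of either group. Ccr2 rose from 57.2 and 68.7 to 754 and 755 CPM and Cxcr6 from 65.8 and 61.5 to 305 and 277 CPM, receptors that guide cells into inflamed tissue. Cxcr1 reached 4.24 and 5.03 CPM from 4 and 1 reads. Cxcr4, the receptor for bone marrow homing, fell from 95.3 and 91.3 to 37.7 and 35.6 CPM, and Cxcr3, Ccr4, Ccr8, Ccr9 and Ccrl2 fell as well.

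Integrins and adhesion genes showed 10 higher and 3 lower of 19, or 7 and 6 when scaled to mapped reads. Itgam, the CD11b chain of Mac-1, rose from 3.15 and 3.08 to 100.4 and 105 CPM, though 68.7% of its exon bases are shared with a same-strand readthrough gene. Itga1 and Itga2, collagen-binding chains, rose from 0.385 and 0.573 to 3.56 and 3.84 CPM and from 3.01 and 3.82 to 13.2 and 11.2 CPM. Itgae, the CD103 chain that binds E-cadherin on epithelium, fell from 85.7 and 74.7 to 15 and 14.2 CPM (-2.46 ± 0.13, adjusted p = 1.99e-10) and Itgb1 from 589 and 687 to 263 and 273 CPM. Among 17 receptors of the IL-6, IL-10, IL-12 and IL-1 families and of interferons, 10 rose and 4 fell, with a median of 0.82. Il6ra rose from 3.63 and 3.49 to 37.3 and 37.6 CPM and both chains of the IL-18 receptor rose, Il18r1 from 99.9 and 115 to 449 and 478 CPM and Il18rap from 22.2 and 22.9 to 110.2 and 107 CPM. Ifngr2 fell from 18.1 and 16.9 to 3.63 and 4.77 CPM, beside Il10ra (-1.27 ± 0.11), Ifnar2 (-0.66 ± 0.09) and Il12rb1 (-0.43 ± 0.11, or -0.24 and not called without replicate 1 of the unstimulated cells). NK-type receptors showed 5 higher and 4 lower of 17, shares near those of all genes (25.2% and 24.9%), or 3 and 6 when scaled to mapped reads. The lower ones fell to 1 without replicate 2 of either group, and the higher ones to 3 without replicate 1 of 21h10. The largest rise was that of Cd7, at 7.89 and 6.71 CPM without and 144 and 131 CPM with 21h10.

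Markers of other cell types moved in part with these groups. The dendritic cell list rose from 10.7 and 9.0 CPM to 18.0 and 16.4 CPM, of which Itgax, also an integrin of activated T cells, made up most, while Clec9a was at 0 in the 4 libraries. The 3 CD4 T cell markers summed to 24.5 and 20.8 CPM against 34.2 and 37.4 CPM, with Cd4 lower and Foxp3 higher (0.192 and 0.164 against 2.85 and 3.93 CPM). Zbtb7b made up most of that sum and was called as higher, at a mean of 19.6 against 31 CPM. Macrophage markers summed to 4.81 and 5.59 against 6.77 and 9.22 CPM, with Csf1r and Cd14 at 3 reads or fewer in each library. Cd68 made up most of the macrophage sum and was called as higher, at a mean of 4.88 against 7.59 CPM. The part of these cells in the rises of Itgam, Ccr2 and Il1r1 was not tested.

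**Figure D3:**
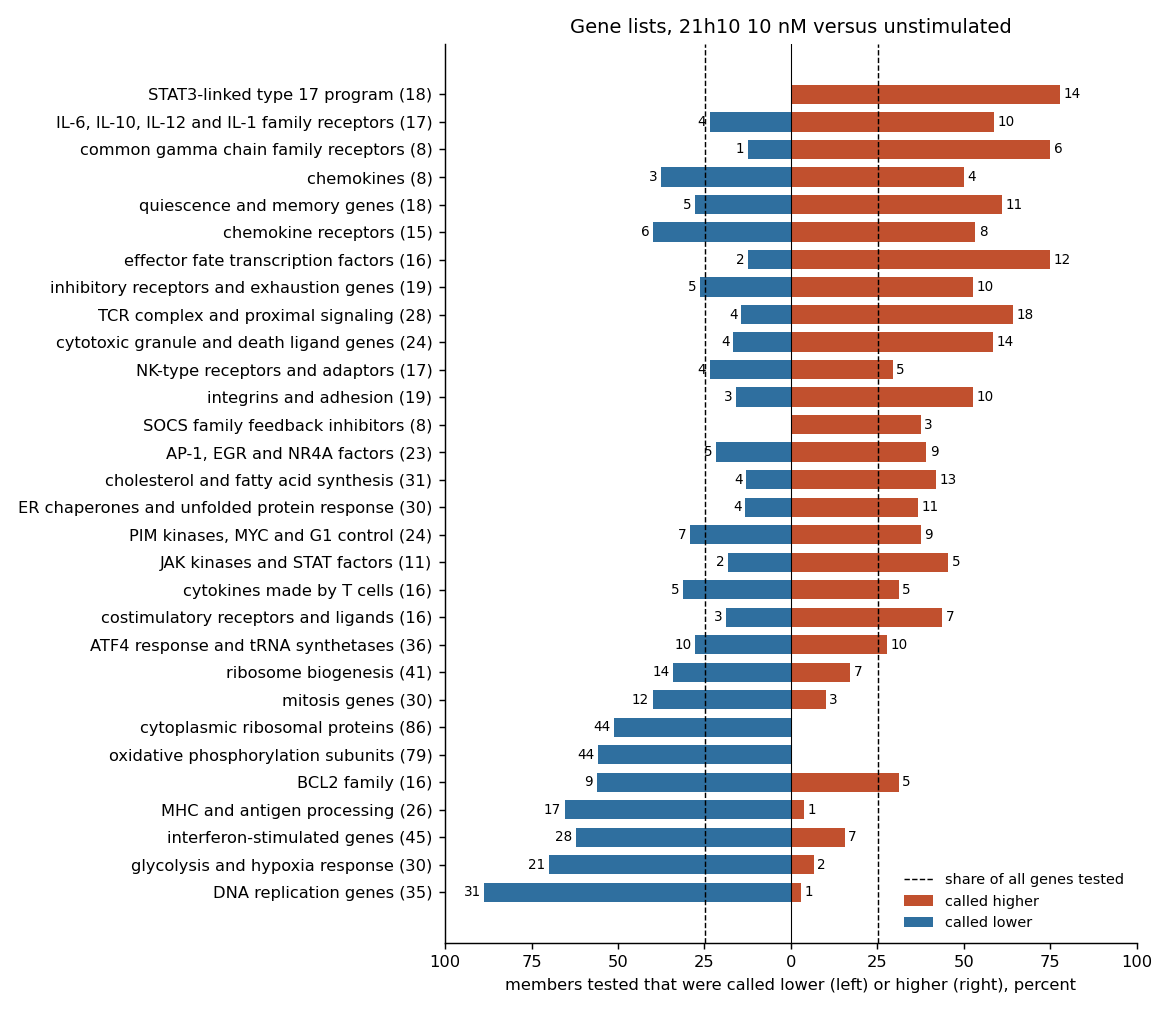
Bars give the percent of the tested members of each of 30 gene lists that were called higher (right, red) or lower (left, blue) with 21h10 10 nM than without cytokine. The number tested stands after each name and the number called at each bar, and dashed lines mark the shares of all genes, 25.2% higher and 24.9% lower. Lists are ordered by their median log2 fold change, from DNA replication genes at -0.85 to the STAT3-linked type 17 program at 1.48.

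Interferon-stimulated genes were mostly lower: 28 of 45 fell and 7 rose, with a median log2 fold change of -0.67, or 34 and 3 when scaled to mapped reads. Ifi44 went from 5.2 and 6.41 to 0.321 and 0.258 CPM. Mx2, which RefSeq lists as a transcribed pseudogene, went from 4.07 and 3.93 to 0.392 and 0.806 CPM, and 34% of its transcript is near-identical to Mx1. Usp18, which removes ISG15 and dampens interferon receptor signals, went from 33.3 and 28 to 6.98 and 7.35 CPM. Irf7, the factor that amplifies type I interferon, and Bst2, which tethers viruses to the cell, were at -1.11 ± 0.11 and -1.84 ± 0.18. Zbp1, a sensor of Z-form nucleic acids, was among the 7 that rose, from 68.7 and 66.1 to 131 and 130.1 CPM, together with Gbp2 (0.60 ± 0.07) and Parp14 (0.56 ± 0.08).

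In the list of MHC and antigen processing genes, 17 of 26 fell and 1, B2m, rose, with a median of -0.58. The immunoproteasome subunit Psmb9 fell from 146 and 120.2 to 67.2 and 64 CPM and the peptide transporter Tap1 from 437 and 359 to 220.2 and 205.1 CPM. B2m, the class I light chain, was at 1839 and 2406 CPM without and 2790.1 and 2788 CPM with 21h10. Its call was lost without replicate 1 of the unstimulated cells, at 0.21, and when scaled to mapped reads, at 0.13. Class II genes fell from low levels: Cd74, the invariant chain, from 17.6 and 13.4 to 0.962 and 0.935 CPM and H2-Aa from 90 and 72 reads to 6 and 1, beside H2-Eb1. B cell markers fell with them in sum, from 14.1 and 11.7 CPM to 6.63 and 6.03 CPM, and 5 of the 6 tested markers were lower. Ms4a1 was at 0 in both 21h10 libraries. Cd79b made up most of the sum, at a mean of 8.93 against 5.09 CPM. The sixth tested marker, Pax5, was called as higher, at a mean of 0.101 against 0.557 CPM. Their part in the fall of the class II genes was not tested.

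DNA replication was the list with the largest share of falls. Of 35 genes, 31 fell and 1 rose, with a median of -0.85. Mcm6, a subunit of the replicative helicase, went from 834 and 798 to 343 and 344 CPM, a log2 fold change of -1.25 ± 0.08 (adjusted p = 1.55e-09). Rfc4 of the clamp loader fell by 1.31 ± 0.11, the polymerase subunit Pold1 by 1.20 ± 0.11 and thymidine kinase Tk1 by 1.19 ± 0.11 on the log2 scale. Tyms, thymidylate synthase, was the exception, at 84.5 and 96.5 CPM without and 128 and 130.3 CPM with 21h10, but its call was lost without any of 3 of the 4 libraries, at 0.41 to 0.52. Mitosis genes moved less, with 12 of 30 lower, 3 higher (6 without replicate 2 of the unstimulated cells) and a median of -0.11. Scaled to mapped reads 22 were lower and 2 higher, with a median of -0.38. Mki67, which encodes the Ki-67 antigen, was not called at 0.13 ± 0.11 and lay between -0.06 and 0.34 as single libraries were left out, the last without replicate 2 of the unstimulated cells, where it was called as higher. The mitotic kinase gene Aurkb fell by 0.71 ± 0.09 and Birc5, survivin, rose by 0.42 ± 0.08 (0.15 and not called when scaled to mapped reads).

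Regulators of the G1 phase, MYC partners and PIM kinases split, with 9 of 24 higher and 7 lower (25.2% and 24.9% of all genes). These counts were 8 and 9 when scaled to mapped reads. Mxd1, which competes with MYC for MAX, rose from 32 and 31.6 to 228 and 221 CPM, while its relatives Mxd4 and Mxi1 fell from 31.5 and 24.2 to 5.88 and 5.12 CPM and from 84.5 and 85.1 to 47 and 43 CPM. Cdkn2d, an inhibitor of CDK4 and CDK6, rose by 1.56 ± 0.12, and Pim2 by 1.07 ± 0.09. Cdk4 fell by 0.69 ± 0.08 and Cdk6 rose by 0.94 ± 0.10. Myc itself was not called at -0.11 ± 0.09, but was called as lower when scaled to mapped reads, at -0.38, and with limma, at -0.37.

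Immediate-early and T cell receptor response factors split as well, with 9 of 23 higher and 5 lower (25.2% and 24.9% of all genes). These counts were 7 and 9 when scaled to mapped reads. Jun rose from 27.8 and 25 to 97.3 and 104 CPM, Egr1 from 39.1 and 40 to 137.4 and 140.4 CPM and Junb from 129 and 109 to 255 and 255 CPM. The NR4A receptors fell, with Nr4a3 at 4.45 and 5.37 CPM against 0.463 and 0.451 CPM and Nr4a1 at 10.7 and 9.11 CPM against 3.71 and 3.93 CPM. Of 16 BCL2 family genes, 5 rose and 9 fell, with a median of -0.46. The survival genes Bcl2 and Mcl1 rose by 0.83 ± 0.08 and 1.02 ± 0.08, and so did the pro-death genes Pmaip1 (NOXA), from 22.1 and 25.2 to 119 and 116 CPM, and Bcl2l11 (BIM), from 48.9 and 44.9 to 119 and 119 CPM. The pro-death gene Bmf fell, at -1.21 ± 0.26. Bcl2a1a, Bcl2a1b and Bcl2a1d also fell, but are near-identical and cannot be told apart in these counts.

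Glycolysis and hypoxia-response genes fell in 21 of 30 cases and rose in 2, with a median of -0.72. Pfkl, a phosphofructokinase, went from 230.4 and 194.5 to 92.4 and 67.7 CPM and lactate dehydrogenase Ldha from 2089 and 1776 to 1311 and 1066 CPM. The hypoxia targets Bnip3 and Vegfa fell from 196.3 and 217 to 94.2 and 71.4 CPM and from 37.2 and 36.6 to 17 and 13.4 CPM. Hif1a, the oxygen-regulated factor of this program, rose in the same libraries, from 460.1 and 591 to 979.7 and 1034 CPM. Of 79 oxidative phosphorylation subunits 44 fell and none rose (median -0.38), for example Ndufa4, at -1.11 ± 0.13. Among 86 genes named as cytoplasmic ribosomal proteins 44 fell and none rose (median -0.30). Without replicate 2 of 21h10, 28 and 21 of the members fell, and scaled to mapped reads 66 and 73 did. The name also drew in Rps6kl1, which is no ribosomal protein and was not called, and many members have near-identical copies. Rps14 was at 940.3 and 619 CPM without and 456 and 337 CPM with 21h10, and the unstimulated libraries differed from each other more than those with 21h10. Both lists consist of short transcripts, with medians of 681 and 706 bases. Across all genes the log2 fold change followed length, from a median of -0.16 in transcripts of up to 1392 bases to 0.13 in those of 4986 bases and more, and its part in these 2 lists was not tested.

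Biosynthetic programs were mixed. Cholesterol and fatty acid synthesis had 13 of 31 genes higher and 4 lower, or 9 and 10 when scaled to mapped reads, with Elovl6, a fatty acid elongase, at 49.6 and 55.6 CPM without and 327 and 315 CPM with 21h10. Chaperones of the endoplasmic reticulum and the unfolded protein response had 11 of 30 higher and 4 lower, or 6 and 10 when scaled to mapped reads and 7 higher without replicate 1 of 21h10, with the sensor Atf6 rising from 44.3 and 46.4 to 224 and 220.4 CPM and the chaperone Hspa5 (BiP) from 429 and 425 to 746 and 704 CPM. ATF4 targets and tRNA synthetases had 10 of 36 higher and 10 lower, shares near the 25.2% and 24.9% of all genes. These counts were 6 and 18 when scaled to mapped reads. Atf4 rose by 0.75 ± 0.09, and Cebpb, Chac1 and Ddit3 of this list were called as higher too. Its targets Trib3 and Vldlr fell, at -1.71 ± 0.19 and -2.84 ± 0.38. The serine synthesis gene Phgdh, which has near-identical copies, fell by 1.52 ± 0.11. Ribosome biogenesis had 7 of 41 higher and 14 lower (median -0.05), or 1 and 26 when scaled to mapped reads. The 7 became 3 without replicate 2 of 21h10, and the 14 became 8 without its replicate 1. Its members ranged from Rrp1b, at 1.17 ± 0.08, to Wdr12, at -1.34 ± 0.09.

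At the same dose, 21h10 was compared with the native cytokine, to ask whether the mimic differed from mIL-21. Only Eomes, 1 gene or 0.00726% of those tested, passed the threshold, at 52.7 and 60.4 CPM without cytokine, 46.2 and 42.6 CPM with mIL-21 and 73.2 and 78.2 CPM with 21h10, a log2 difference of 0.77 ± 0.10 (adjusted p = 0.0136). The call was lost without 3 of the 4 libraries compared, at differences of 0.71 to 0.83. Before adjustment, 1207 genes had an unadjusted p under 0.05, and the share called depended on the fit, from 0 with limma on RPKM to 1.105% when only these groups were fitted. The log2 difference between both cytokines lay between -0.31 (Ccr7) and 0.11 (Bcl2) over the 21 genes the study singled out, with none called. Prf1 stood at 293 and 278 CPM with 21h10 against 259.7 and 303 CPM with mIL-21, a difference of 0.02 ± 0.09. Socs3 differed by -0.09 ± 0.07. Differences of this size did not pass the test, which does not show that the proteins act alike.

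The step from 10 to 100 nM of 21h10 addressed the effect of dose within the experiment. At 100 nM, 259 genes (1.88%) were higher and 475 (3.45%) lower than at 10 nM, a comparison that shares the 10 nM libraries with the response itself. The calls fell from 734 to between 254 and 338 when 1 of the 4 libraries was left out. Eomes stood at 214 and 248 CPM at 100 nM, a log2 difference of 1.61 ± 0.10 from 10 nM (adjusted p = 1.55e-07). Il24 went from 1.57 and 1.71 to 17.4 and 13.2 CPM, Fam19a3, a secreted chemokine-like protein, from 9.05 and 10.9 to 66 and 53.8 CPM, and Epas1, the hypoxia factor HIF-2 alpha, from 18.9 and 19.8 to 105 and 113 CPM. Tspan9, a tetraspanin gene, was at 18.7 and 12.9 CPM without cytokine, at 5.42 and 5.58 CPM at 10 nM and at 35.3 and 33.3 CPM at 100 nM, so that the doses lie on opposite sides of unstimulated cells. Gm590 completed the 5 largest, at 1.5 and 0.838 against 5.3 and 4.46 CPM. Effector genes rose a little further, with Gzmb at 8407 and 8156 CPM and Gzma at 4867 and 4768 CPM at 100 nM, and Bcl2 and Cish at log2 differences of 0.72 ± 0.08 and 0.68 ± 0.13. The calls for Gzmb and Gzma were lost without any of 3 of the 4 libraries, at log2 differences of 0.34 to 0.41 against 0.39 and 0.42 to 0.49 against 0.47, and that for Cish without either of 2, at 0.58 and 0.66. Prf1 was not called between the doses (0.19 ± 0.09).

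Several genes were nearer to unstimulated cells at 100 nM than at 10 nM. Miat stood at 24.2 and 29.6 CPM at 10 nM and at 5.43 and 8.7 CPM at 100 nM, and Il18, the cytokine interleukin-18, at 6.4 and 6.71 CPM without cytokine, 25.1 and 24.1 CPM at 10 nM and 5.96 and 7.73 CPM at 100 nM. Il6ra went from 37.3 and 37.6 to 13.4 and 12.7 CPM, Ifitm1 from 699.7 and 625 to 247 and 255 CPM and S1pr1 from 327 and 329.7 to 169 and 168 CPM. Ccl5 and Btla were lower at 100 nM by 1.06 ± 0.12 and 1.09 ± 0.10 on the log2 scale, and Fxyd4 and Crhbp, both below 3 CPM in the unstimulated and 21h10 libraries, by 3.02 ± 0.58 and 2.16 ± 0.34. Fxyd4 lost its call without replicate 2 of 100 nM, at -2.25. The short Mir142 entry, which lies opposite Mir142b over its whole length, lost its call without any 1 of the 4 libraries. Itgae fell further, from 15 and 14.2 to 5.9 and 4.87 CPM. By list, 9 of 19 integrin and adhesion genes and 8 of 18 quiescence and memory genes were lower at 100 nM than at 10 nM, with none higher, and 9 of 31 cholesterol and fatty acid synthesis genes were higher, with none lower.

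**Figure D4:**
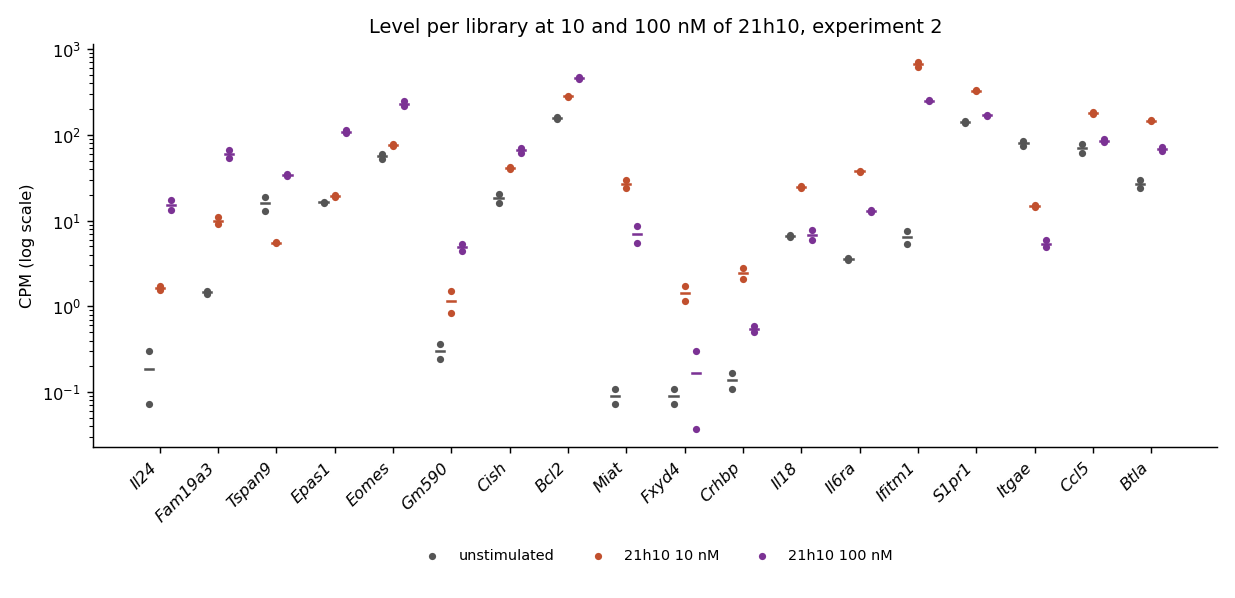
CPM on a log axis for 18 genes, with 1 point per library and a bar at the mean of the 2 libraries of unstimulated cells (grey), 21h10 10 nM (red) and 21h10 100 nM (purple) in experiment 2. On the left Il24, Fam19a3, Epas1 and Eomes are higher at 100 nM, and on the right Miat, Il18, Ifitm1 and Btla peak at 10 nM.

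The response was set against that to 1 nM of 21h10 in experiment 1, where 5347 (38.3%) of 13974 genes tested were higher and 5881 (42.1%) lower than in the unstimulated cells of that experiment. Dose and experiment change together in this comparison and cannot be told apart. Both experiments called 5775 genes, of which 3997 moved in the same direction and 1778 (30.8%) in opposite directions. The former are 59.2% of the 6752 genes called in experiment 2 and 37.1% of the 10781 called in experiment 1, among those tested in both. Across 13248 genes, which are not independent of each other, Pearson's r between the log2 fold changes was 0.44 and Spearman's rho 0.33. The difference between both responses, tested in a fit of all 20 libraries, was called for 8460 genes (58.2% of 14530), with 4005 (27.6%) higher in experiment 2 and 4455 (30.7%) lower.

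Prf1, Socs3, Prdm1, Ifng and Gzmb were called as higher in both experiments. Prf1 had a log2 fold change of 4.04 in experiment 2 and 3.84 in experiment 1, and the difference in the joint fit, 0.12 ± 0.12, did not pass the test. Socs3 rose less in experiment 2, with a difference of -1.96 ± 0.10 (adjusted p = 1.47e-12), and Prdm1 differed by -1.10 ± 0.11. Ifng rose more in experiment 2, with 3.48 against 0.87 and a difference of 2.52 ± 0.15 (adjusted p = 1.26e-11). Gzmb also rose more, by 0.98 ± 0.09, from unstimulated levels of 1082 and 1152 CPM in experiment 2 and 2832 and 2793 CPM in experiment 1. Socs2 went in opposite directions, from 11.5 and 12.9 to 33.8 and 32.5 CPM in experiment 2 and from 36.2 and 34.9 to 16.9 and 17 CPM in experiment 1. Cxcr4 did so too, with a log2 fold change of -1.35 in experiment 2 and 2.87 in experiment 1. Most of the largest differences in each direction rested on few reads. Afap1l1, Miat and the short RNA entries Snora62, Mir92-1 and Snord52 were higher in experiment 2, while Prtn3, Etnk2, Ovol1 and Spns2, with 31 reads or fewer in sum in either group of experiment 2, were lower. Miat went from 0.389 and 0.345 to 1.4 and 1.34 CPM in experiment 1, a difference of 6.23 ± 0.60 from its rise in experiment 2.

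Whole programs differed. All 30 glycolysis and hypoxia genes rose in experiment 1 (median 1.68) and the difference was called for each of them, against 21 that fell in experiment 2. Bnip3 went from 48.6 and 47.2 to 391 and 423 CPM in experiment 1 and Vegfa from 18.6 and 17.8 to 170.0 and 178 CPM. Ribosome biogenesis was the reverse, with 40 of 41 genes lower in experiment 1 (median -1.71) and 37 differences called as higher in experiment 2. Rrs1, an assembly factor of the large ribosomal subunit, was at -2.47 ± 0.07 in experiment 1 and 0.45 ± 0.11 in experiment 2, the latter not called without replicate 2 of 21h10, at 0.36. Ribosomal protein genes rose in 65 of 86 cases in experiment 1. MHC and antigen processing genes were higher in 16 of 27 and lower in 10 in experiment 1 against 1 and 17 of 26 in experiment 2, and 22 differences were called as lower in experiment 2. DNA replication genes fell in both, with 34 of 35 lower in experiment 1 (median -1.21), as did interferon-stimulated genes, with 30 of 45 lower and 12 higher. The STAT3-linked type 17 program rose in both, in 20 of 21 genes in experiment 1 (median 3.32).

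**Figure D5:**
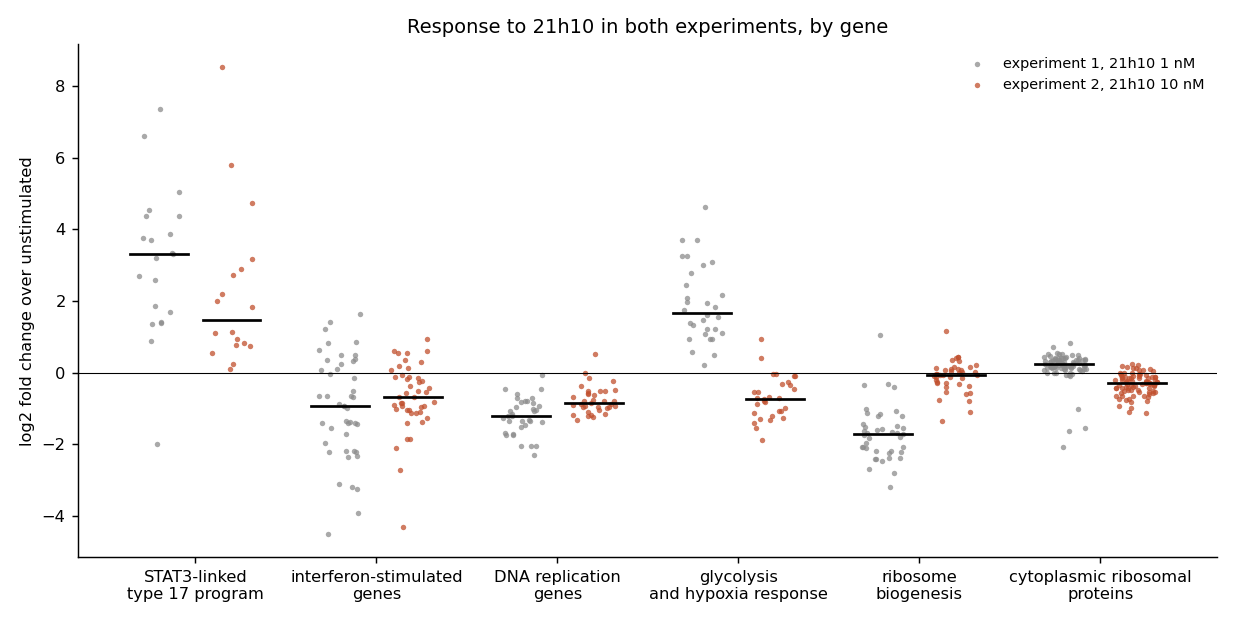
Each point is the log2 fold change of a gene over the unstimulated cells of its own experiment, for 21h10 1 nM in experiment 1 (grey) and 21h10 10 nM in experiment 2 (red), with black bars at the median of each list. DNA replication and interferon-stimulated genes lie mostly below 0 in both, while glycolysis and hypoxia genes have a median of 1.68 in experiment 1 and -0.72 in experiment 2.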

How the data were processed

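Libraries were KAPA mRNA HyperPrep libraries sequenced on a NovaSeq instrument. Per the submitters' processing notes, Bowtie2 2.2.6, TopHat2 2.0.11, SAMtools 0.1.8, bedtools 2.25.0 and edgeR were used with mm10 (GRCm38). The authors deposited, for each library, whole-number read counts per RefSeq transcript and the RPKM value made from them. The counting tool and its use of strand are not given in the sources used here. For each of 23992 symbols the longest transcript was taken; 4343 symbols had more than 1, and for 646 of these another held more reads.

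From the counts, edgeR 4.0.16 (R 4.3.3) was run with filterByExpr (at least 10 reads in a library, 15 in sum), TMM and the quasi-likelihood test with Benjamini-Hochberg adjustment, on the 10 libraries of experiment 2, or all 20 for the difference between experiments. Typical spread between duplicates (biological coefficient of variation) was 8.8% in experiment 2 and 4.32% in experiment 1. The fit of all 20 libraries pooled both, at 6.64%, which is below that of experiment 2 alone. The test was tried first on simulated data. Errors are standard errors; floors and intervals cover counting error only. Alternatives were DESeq2 1.42.0, limma 3.58.1 on log2(RPKM + 1), library size from mapped reads, no filter, only the groups compared, the most-read transcript, the replicate block and leaving out each library. Coordinates and promoters came from RefSeq GRCm38.p6, and copies were sought with BLAST 2.17.0.

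Members and gene lists were chosen with earlier results of these data known. Genes named were the 12 largest rises and falls by log2 fold change that reached a mean of 1 RPKM with groups that did not overlap, the 6 largest gains and losses in CPM, the genes the study singled out, the 5 largest per direction in the other comparisons, any member of lists of up to 25 genes, and up to 4 called members per direction of longer lists. Irf7, Bst2, Psmb9, Tap1, Ldha, Mki67 and the marker genes were added after their values were seen. Results for some genes are not reported here.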

Additional observations from a re-analysis of the deposited data

Results flagged for a closer look

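The response to 21h10 differed between experiment 2 (10 nM) and experiment 1 (1 nM) for 8460 genes, tested as the difference of both responses in a fit of all 20 libraries (edgeR's quasi-likelihood test, Benjamini-Hochberg adjusted p under 0.05). For 1778 of them the gene was called in opposite directions. Dose and experiment cannot be told apart. Among the latter, only genes that reached a mean of 10 RPKM in at least 1 of the groups compared were ranked. Those with the largest differences in each direction are given here as log2 differences, experiment 2 minus experiment 1.

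On the higher side were Snord57 (5.08), Snora81 (3.74) and Snord22 (3.03), all small nucleolar RNA entries below 8 CPM on average in both groups of experiment 2, and Rrs1 (2.83), a factor of ribosome assembly. On the lower side were the selenium-binding protein genes Selenbp1 (-8.27) and Selenbp2 (-7.77), Ndrg1 (-7.6), a stress-responsive gene also induced by hypoxia, and Plcxd1 (-7.49). Selenbp1 went from a mean of 10.0 to 2.27 CPM in experiment 2 and from 1.89 to 126 CPM in experiment 1. Ndrg1 went from 86.3 to 13.8 CPM and from 15.2 to 441 CPM. The level in unstimulated cells was lower in experiment 1 for both genes, a difference that was not tested.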

How the results depend on the processing

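Of 248 values of single genes, 217 kept their direction and their side of the threshold under every alternative. The balance of the main calls followed the scaling. With library size from mapped reads 1969 genes were higher and 5785 lower, and with limma on RPKM 1509 and 5074. The median of all genes lay at -0.27 and -0.25 there. The mapped-read setting changed the scaling alone, while limma also changed the test and the filter, with 10813 genes tested. Leaving out 1 library gave 2597 to 3469 higher and 2367 to 3479 lower genes. The share of genes called against mIL-21 went from 0.00726% to 0.0871% with DESeq2, 1.105% with only the groups compared, 0% with limma, 0.924% without the filter and 0% to 0.0341% without 1 library. The calls of 100 nM against 10 nM went from 734 to 1553 with only the groups compared, 409 with limma, 1150 without the filter and 254 to 338 without 1 library. The difference between experiments was called for 7510 to 8634 genes throughout. The cause of the other changes was not tested.

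Some values that were not called on the TMM scale changed sign. With mapped reads and limma, Cd8a was at -0.096 and -0.093, Mki67 at -0.14 and -0.13, Socs1 at -0.12 and -0.061 and Tigit at -0.0088 and -0.0050. Without 1 library, Mki67 was at -0.064 to 0.34 and Socs1 at -0.16 to 0.57, both called at the upper end, and Socs5 at -0.35 to 0.024. Prf1 against mIL-21 was at -0.076 with mapped reads, -0.069 with limma and -0.092 to 0.13 without 1 library.

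Deviations of same-numbered libraries correlated at -0.167 to 0.227 between groups (0.063 for the groups compared). The labels do not say whether replicate numbers pair the samples, which these correlations cannot decide, and the main fit used no replicate block. With the replicate block 3516 genes were higher and 3513 lower, 0.0290% differed from mIL-21, 823 between doses and 8485 between experiments. Where a group was left with 1 library, that library was assumed to vary like the other groups. Genes with few reads and changes below about 0.5 on the log2 scale are limited by depth and by the number of libraries.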
